A study of Rattus with 18 samples.

Results

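Immediate early genes were followed in rat glomeruli through anti-Thy1 nephritis: Fos, Fosb, Fosl1, Jun, Junb, Egr1, Atf3, Myc, Ier3 and Dusp1. They were chosen by name, with earlier results of these data known. All 10 of 10 were measured, each by 1 probe, among 23188 genes and transcripts that passed the filter. The filter kept probes well above background on all arrays of at least 1 day. The rats were of the SD strain and weighed 200 g, and per the labels 30 received an anti-Thy1 antibody and 6 received saline. Glomerular RNA was read on 18 single-colour arrays, 3 for each of day 0 (saline control), day 1, day 2, day 3, day 4 and day 5 after the antibody. The labels give 6 rats per time point and 3 glomeruli from each, and do not say how many rats stand behind 1 array.

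Immediate early genes are switched on within minutes of a growth factor, cytokine or injury signal, without new protein synthesis. Fos and Jun family proteins pair to form the AP-1 transcription factor, Egr1 is a zinc finger factor, Atf3 is a stress-induced factor of the ATF family and Myc drives growth genes. Dusp1 is a phosphatase that switches off MAP kinases, and Ier3 is a response gene linked to cell survival. In anti-Thy1 nephritis the antibody injures mesangial cells, which later proliferate, and leukocytes enter the glomerulus. The arrays give 1 reading a day, so a transient peak within hours of injection was not sampled.

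The signal of each gene was read from a single 60-base probe, and the first 30 bases are shown for the 7 genes whose level passed the test on at least 1 day, since these letters are what the measurement rests on. The Fosb probe is listed in the files as LOC100360880, and its name rests on a transcript accession that RefSeq gives to Fosb.
Fos: ttgcagaccgagattgccaatctactgaaa
Fosb: tgacggcttctctctttacacacagtgaag
Fosl1: tcttcatgttatccagcctactctaagcct
Junb: atgacccacgtcagcaacggctgccagttg
Egr1: tttgtatgctatgaacatgaagttcattat
Atf3: tctgtgaaatcctcagtgttcaatccagac
Dusp1: agacattagctcctggttcaacgaggcgat
On the rat build rn4, the file places the Fos probe at chr6:109561099-109561158 on the plus strand and the Fosl1 probe at chr1:208098827-208098886 on the plus strand. The Fosb probe lies at chr1:78668672-78668731 on the minus strand and the Junb probe at chr19:24832781-24832840 on the plus strand. The Egr1 probe lies at chr18:27347173-27347232 on the plus strand. Exon or UTR positions were not assigned, since no annotation of that build was used here. Jun, Egr1 and Myc were each printed in 10 spots, which were averaged.

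Levels are log2 of the processed intensity minus the 75th percentile of the array, so 0 is the brightness of a probe at that percentile. Levels of different genes are not compared, because probes differ in brightness. The 75th percentile was at least 252 intensity units on every array of days 1 to 5, and 181 to 229 on the day 0 arrays. Day 0 replicate 4 was the lowest array of its day for 9 of the 10 genes, against 53.6% of all genes, and the highest for Dusp1. The arrays lay on 5 slides. Slide 4 held all 3 day 2 arrays and day 4 replicate 1, so day 2 and slide 4 cannot be told apart. All 3 day 0 arrays lay on slide 1, with day 1 replicate 1. With slide as a fixed block, every difference of days 1, 3 and 5 from day 0 therefore rests on that 1 day 1 array. Days 3 and 5 are reached only through slides 2 and 3, so calls from that fit decide nothing. The arrays of days 0, 1, 3 and 5 were scanned on 1 day and those of days 2 and 4 on another, so a difference of day 2 or day 4 from day 0 cannot be told apart from scan day. Thy1, the antibody's target and a mesangial marker in the rat, was lower on day 1 than on day 0 by a log2 difference of -3.25 ± 0.59 (SE, limma adjusted p = 0.00261) and on day 2 by -1.84 ± 0.59 (limma adjusted p = 0.0199).

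**Figure D1:**
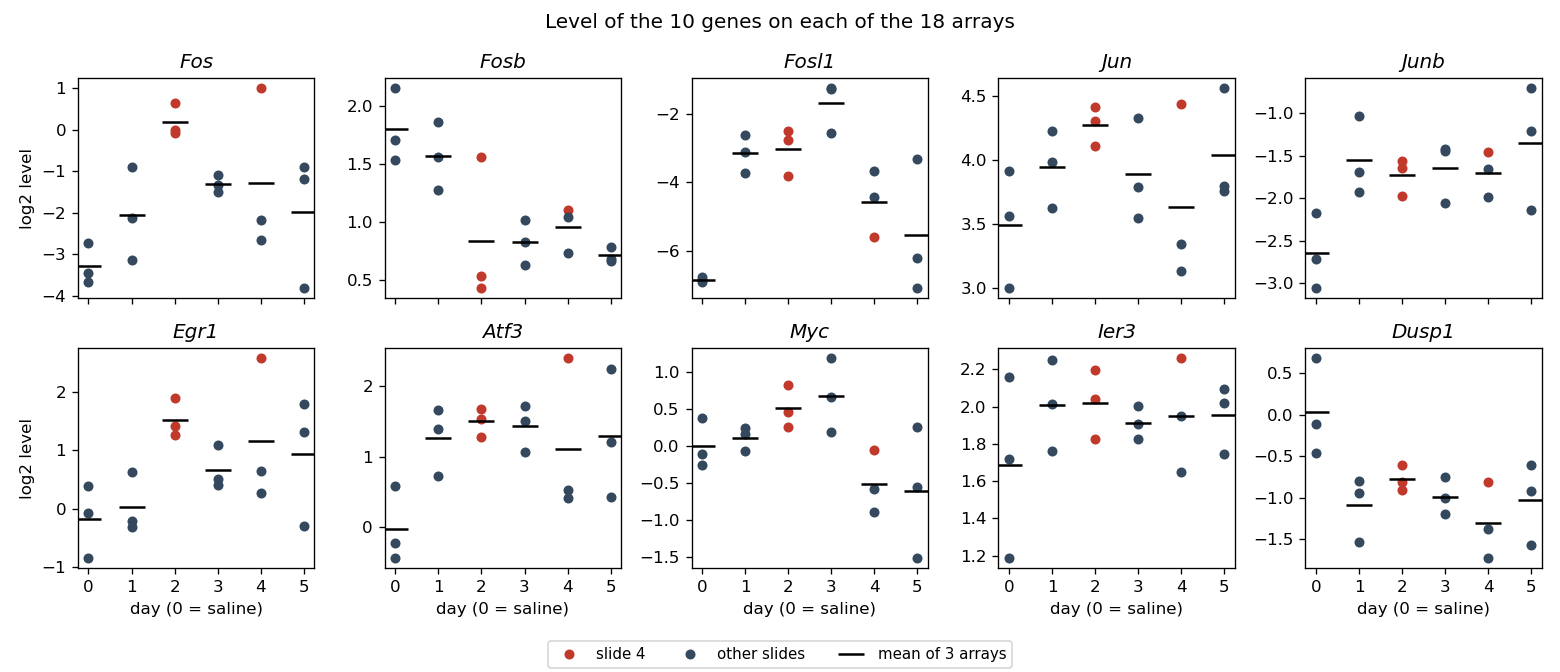
Log2 level of each gene (vertical axis, own scale per gene) on each array by day (horizontal axis, day 0 saline). Points are single arrays, red for slide 4, and black lines are means of 3 arrays; the 4 red Fos points lie above the other 14.

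On day 2, 5 of the 10 genes were higher than on day 0 (Fos, Fosl1, Junb, Egr1 and Atf3) and 2 were lower (Fosb and Dusp1), by limma with an adjusted p threshold of 0.05. Of all genes tested, 45.9% passed on that day, 20.8% higher and 25.1% lower. On day 1, 2 genes were higher and 1 was lower, where 40% of all genes passed, 19.2% higher and 20.7% lower. On day 3, 3 were higher and 2 were lower, where 47.7% passed, 21.7% higher and 26% lower. On day 4, 2 were higher and 2 were lower, where 52.3% passed, 25.6% higher and 26.7% lower. On day 5, 2 were higher and 2 were lower, where 44.3% passed, 20.9% higher and 23.4% lower. On days 1, 3, 4 and 5 between 3 and 5 of the 10 genes passed, a share near that of all genes, and on day 2 7 of the 10 passed. The counts of days 1 to 4 include Fosl1, which passed the filter only through days 2 and 3, where it was high. The median log2 difference of the 10 genes was 0.39, 0.85, 0.76, 0.61 and 0.83 on days 1 to 5, and that of all genes lay between -0.02 and 0.06. Without day 0 replicate 4, the counts on days 1 to 5 were 1, 3, 2, 2 and 2 genes. Fosl1 on days 1 to 3, Fos on day 2, Junb on day 5, Fosb on days 2 to 5 and Dusp1 on day 4 were then still past the threshold. The balance of higher and lower calls moved with the scaling: of all genes called, 45.3% to 48.9% were higher on days 1 to 5, against 70.5% to 76.5% when arrays were scaled to their median and 11.8% to 19.4% when scaled to 12 reference genes. These scalings moved the median of all genes to between 0.39 and 0.51 and to between -0.52 and -0.32. With median scaling 3, 7, 5, 6 and 5 of the 10 genes were higher on days 1 to 5, and 1, 0, 0, 1 and 0 were lower. Of all genes, 11235, 12966, 12535, 13700 and 12722 were then called, 8303, 9147, 8834, 9831 and 9737 of them higher. With reference gene scaling 1, 2, 1, 0 and 1 of the 10 genes were higher, and 1, 2, 2, 3 and 3 were lower. All genes then had 9764, 10496, 11879, 12679 and 9994 calls, 1153, 2004, 2304, 1763 and 1570 of them higher. Normexp background correction ended all but 1 of the calls of the 10 genes on these days. Of all genes, it left 29, 1485, 1544, 2602 and 56 called on days 1 to 5 (saddle). With dark spots repaired, 10928, 14101, 14057, 15271 and 11865 of all genes were called. Of 60 results of the 10 genes, antibody days together included, 45 then kept direction and call and 8 lost their call. The 45 include results that passed in neither fit.

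**Figure D2:**
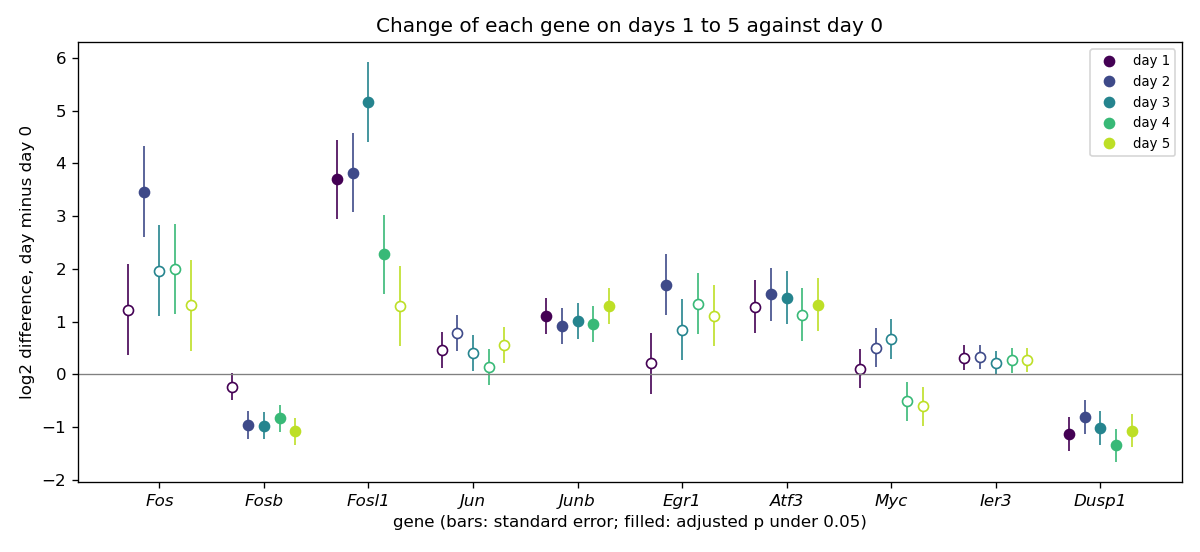
Log2 difference of each day from day 0 (vertical axis) for the 10 genes (horizontal axis), with SE bars from the limma fit; filled points have an adjusted p under 0.05. Fosl1 was below background on day 0, so its points are measured differences and not true sizes; Fosb and Dusp1 lie below 0 on all 5 days, though Fosb on day 1 was at 0.11 with median scaling.

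Fosl1, the Fra-1 subunit of AP-1, was not well above background in control glomeruli and was higher on days 1 to 4. Its level was -6.86, -6.91 and -6.78 on the day 0 arrays, and none of the 3 was well above background. It was -3.11, -3.74 and -2.62 on day 1 and -2.50, -2.77 and -3.80 on day 2. It was -1.25, -1.25 and -2.56 on day 3, the highest day mean. It was -5.61, -4.43 and -3.67 on day 4 and -6.21, -7.11 and -3.33 on day 5. All arrays of days 1 to 4 lay above all day 0 arrays, a separation, in either direction, found for 51.3%, 57.8%, 56.2% and 58.8% of all genes on days 1, 2, 3 and 4 and 52.5% on day 5, where the Fosl1 arrays overlapped. Fosl1 was well above background on 2 of 3 arrays on day 1, 3 of 3 on days 2 and 3, 2 of 3 on day 4 and 1 of 3 on day 5. It passed the filter on dim probes only through days 2 and 3, where it was high, so it had to differ from day 0 on those days and its p values there are given as a description.

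Because Fosl1 was not well above background on day 0, its fold is a lower bound, taken against the lowest signal well above background on each day 0 array. The p values beside the bounds test the measured differences from the dim day 0 signals, not the bounds, and are given as a description. On days 1 and 4 Fosl1 was well above background on 2 of 3 arrays, so those bounds rest partly on dim signals. Fosl1 was at least 2.79-fold higher on day 1 than on day 0 (limma adjusted p = 0.00365), at least 3.06-fold higher on day 2 (limma adjusted p = 0.00166) and at least 7.72-fold higher on day 3 (limma adjusted p = 0.000535). On day 4 the bound was at least 1.05-fold higher (limma adjusted p = 0.0198), and without day 0 replicate 4 that call was lost (limma adjusted p = 0.0574), as it was without day 4 replicate 2 (0.0519) or replicate 3 (0.0856) and with reference gene scaling (0.0701). On day 5 it did not pass (limma adjusted p = 0.169). The size depends on how dim signals are treated: with normexp and repaired dark spots the differences on days 1 to 5 were 0.25, 0.17, 0.96, -0.38 and -0.15, and day 3 alone passed (limma adjusted p = 0.00163). With slide as a fixed block, the Fosl1 differences from day 0 rest on day 1 replicate 1, so that fit decides nothing here. Day 4 minus day 3 was -2.88 ± 0.75 (SE, limma adjusted p = 0.0521) and day 5 minus day 3 was -3.86 ± 0.75 (SE, limma adjusted p = 0.0889). Neither passed, where 2.99% and 0.00863% of all genes did.

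The genes whose pattern was most like Fosl1 over the 18 arrays were Tubb6, a tubulin, with Pearson r = 0.95, and Aif1 and Adgre1, both macrophage genes, with r = 0.95 and r = 0.94. The candidates were 4070 genes with a current symbol and an SD of at least 0.5, and the arrays share days and slides. Fosl1 was not well above background on the day 0 arrays or on some arrays of days 1, 4 and 5. Every r given for it therefore rests partly on dim signals. The summed level of 12 macrophage markers, in log2, was 5.00 to 5.83 on day 0, 7.35 to 7.93 on day 1, 7.22 to 8.01 on day 2, 8.28 to 8.57 on day 3, 5.27 to 7.43 on day 4 and 5.47 to 7.90 on day 5. Between 10 and 11 of the 12 markers were well above background on each array. Over the 18 arrays Fosl1 and this sum had r = 0.92, and r = 0.73 after each day's mean was removed. Platelet markers and T, B and NK cell markers followed a like course. The summed level of 5 platelet markers had r = 0.86 with Fosl1, and r = 0.61 after day means were removed. It was 0.84 to 2.24 on day 0, 3.08 to 4.40 on day 1, 3.66 to 5.27 on day 2, 3.85 to 4.68 on day 3, 1.23 to 3.18 on day 4 and 2.18 to 3.27 on day 5. That of 10 T, B and NK cell markers had r = 0.82, and r = 0.66 after day means were removed, and 2, 7, 8, 0 and 1 of the 9 tested were higher on days 1 to 5. Of all genes, 19.2%, 20.8%, 21.7%, 25.6% and 20.9% were higher on those days. The counts include Cd2 and Cd79b, each well above background on 1 of 3 day 0 arrays. Both passed the filter only through later days, where they were high, so their calls are given as a description. Cd79b was the only call on day 5. The smooth muscle marker sum had r = 0.61 with Fosl1, and r = 0.84 after day means were removed. For the other 9 genes r with the macrophage sum lay between -0.33 and 0.53. In bulk glomeruli, more cells of a type and more RNA per cell cannot be told apart. The part of these cell types in the Fosl1 values was not tested.

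**Figure D3:**
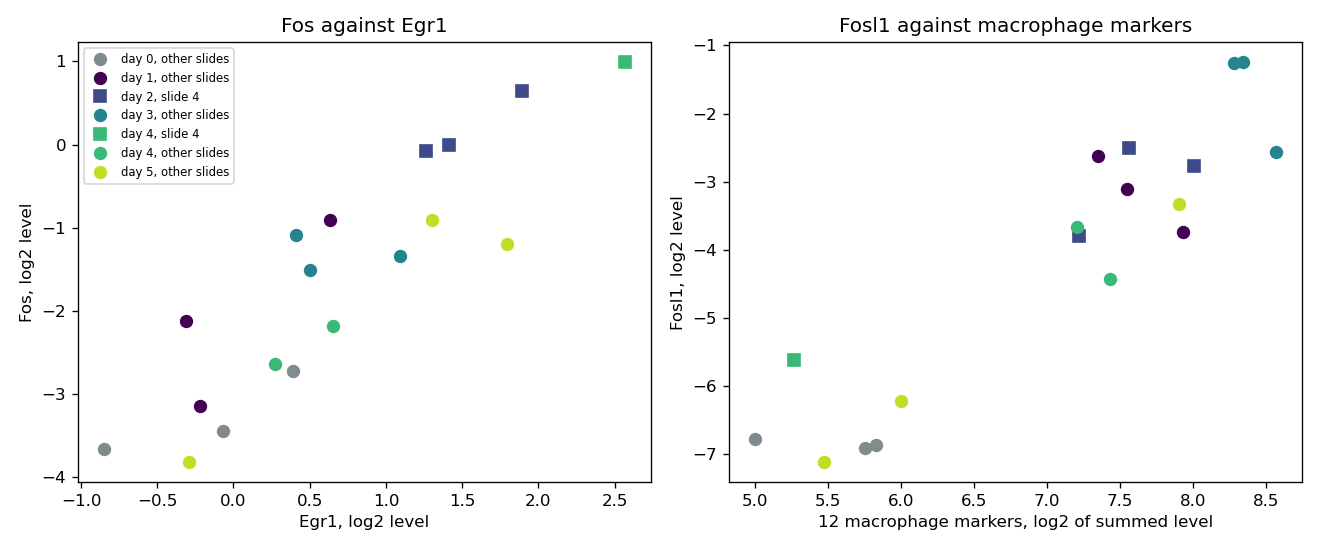
Left, log2 level of Fos (vertical) against Egr1 (horizontal); right, log2 level of Fosl1 (vertical) against the log2 summed level of 12 macrophage markers (horizontal). Each point is 1 array, coloured by day, with squares for slide 4; the 4 squares hold the 4 highest Fos values, and day 4 replicate 1 is a square at the low end on the right.

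Fos, the classical partner of Jun, was highest on day 2. Its level was -2.73, -3.66 and -3.45 on day 0 and -2.12, -0.91 and -3.14 on day 1. It was -0.08, -0.01 and 0.64 on day 2 and -1.09, -1.50 and -1.34 on day 3. It was 0.99, -2.18 and -2.64 on day 4 and -1.19, -3.82 and -0.90 on day 5. The day 2 arrays lay above all arrays of days 0, 1, 3 and 5, while day 4 replicate 1 lay above them and the other 2 day 4 arrays did not. Between days 2 and 0 alone, 57.8% of all genes did not overlap, in either direction.

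Fos was 11.02-fold higher on day 2 than on day 0, a log2 difference of 3.46 ± 0.86 (SE, n = 3 arrays each, limma adjusted p = 0.00546). It did not pass on day 1 (1.22, limma adjusted p = 0.262), day 3 (1.97, limma adjusted p = 0.072), day 4 (2.00, limma adjusted p = 0.0628) or day 5 (1.31, limma adjusted p = 0.224). The 4 highest Fos arrays were the 4 arrays of slide 4, at -0.08 to 0.99, against -3.82 to -0.90 on the other 14. Of all genes, 0.294% had all 4 slide 4 arrays above the other 14. On day 4, the slide 4 array was at 0.99 and the mean of the other 2 was -2.41, and without the slide 4 array day 4 minus day 0 was 0.86. Day 3 passed without day 4 replicate 1 (limma adjusted p = 0.0229), without day 5 replicate 4 (0.0412) and without the 4 arrays of slide 4 (0.0354), when day 2 has no arrays. Day 4 passed without day 4 replicate 3 (limma adjusted p = 0.0285) or day 5 replicate 4 (0.0356). Both days passed with median scaling (limma adjusted p = 0.0326 and 0.0272) and with quantile normalization (0.0376 and 0.0334). The residual SD of Fos, 1.17, stood at the 98.9th percentile of all genes.

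Egr1, which answers the same signals through serum response factor, was also highest on day 2. Its level was 0.39, -0.85 and -0.07 on day 0 and -0.31, 0.63 and -0.22 on day 1. It was 1.26, 1.42 and 1.89 on day 2 and 0.41, 0.50 and 1.09 on day 3. It was 2.57, 0.65 and 0.28 on day 4 and 1.79, -0.29 and 1.31 on day 5. Day 2 lay above day 0 on every array, where 57.8% of all genes did not overlap, in either direction. Day 4 replicate 1 was the highest of the 18.

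Egr1 rose on day 2 by 1.70 ± 0.58 (SE, log2, limma adjusted p = 0.0264), and without day 0 replicate 4 this did not pass (1.36, limma adjusted p = 0.122), nor without day 2 replicate 3 (0.0573) or replicate 4 (0.0849) or with reference gene scaling (0.0709). The differences on days 1, 3, 4 and 5 were 0.21, 0.85, 1.34 and 1.11 and did not pass. Day 4 passed without day 0 replicate 2 (limma adjusted p = 0.0484), day 4 replicate 3 (0.0301) or day 5 replicate 4 (0.0361). With median scaling days 4 and 5 passed (limma adjusted p = 0.0206 and 0.0391). Over the 18 arrays Fos and Egr1 had r = 0.89, and r = 0.92 after each day's mean was removed. The genes most like Egr1 were Btg2, an antiproliferative response gene, with r = 0.84, Nr4a1, a nuclear receptor of the immediate early class, with r = 0.83, and Zfp36, which promotes decay of cytokine mRNAs, with r = 0.82. Those most like Fos were Btg2 with r = 0.87, Zfp36 with r = 0.81 and Batf2 with r = 0.77.

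Atf3 was higher on 3 of the 5 days. Its level was 0.58, -0.44 and -0.22 on day 0, 0.73, 1.39 and 1.66 on day 1, and 1.28, 1.53 and 1.68 on day 2. It was 1.07, 1.51 and 1.71 on day 3, 2.39, 0.53 and 0.41 on day 4, and 2.24, 0.43 and 1.21 on day 5. All arrays of days 1 to 3 lay above all of day 0, and those of days 4 and 5 overlapped them. Of all genes, 51.3%, 57.8% and 56.2% did not overlap day 0 on days 1, 2 and 3, in either direction. The rise was 1.52 on day 2 (limma adjusted p = 0.0234), 1.45 on day 3 (limma adjusted p = 0.0271) and 1.32 on day 5 (limma adjusted p = 0.0449). Days 1 and 4, at 1.29 and 1.13, did not pass (limma adjusted p = 0.0536 and 0.0707). Without day 0 replicate 4 none of the 3 calls held (limma adjusted p = 0.097, 0.105 and 0.16). Day 2 was also lost without day 0 replicate 5, day 2 replicate 3 or day 2 replicate 4, day 3 without day 0 replicate 5, day 3 replicate 3 or day 3 replicate 4, and day 5 without any 1 of 11 arrays. Day 1 passed without day 0 replicate 2, day 4 replicate 1, day 5 replicate 2 or day 5 replicate 4, and day 4 without day 0 replicate 2, day 4 replicate 3 or day 5 replicate 2. Reference gene scaling ended all 3 calls (limma adjusted p = 0.0768, 0.0976 and 0.16), and with median scaling days 1 and 4 passed too (0.0184 and 0.0179). With slide as a fixed block the difference was 0.52 on day 3 and 0.10 on day 5. Btg2 was the gene most like Atf3, with r = 0.94, followed by Spata22 with r = 0.79 and Cxcl1, a neutrophil chemokine, with r = 0.77.

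Junb, an AP-1 subunit that can oppose Jun, was modestly higher on every day after the antibody. Its level was -2.17, -3.06 and -2.71 on day 0, -1.69, -1.03 and -1.92 on day 1, and -1.97, -1.56 and -1.65 on day 2. It was -1.42, -2.05 and -1.45 on day 3, -1.45, -1.99 and -1.66 on day 4, and -1.21, -2.14 and -0.71 on day 5. Every array of the 5 later days lay above every day 0 array. On single days, 51.3% to 58.8% of all genes did not overlap day 0, in either direction. The rises were 1.10, 0.92, 1.01, 0.95 and 1.30 on days 1 to 5, with limma adjusted p values of 0.0212, 0.0386, 0.0246, 0.0302 and 0.00797. Without day 0 replicate 4 day 5 alone still passed (limma adjusted p = 0.0448). Day 1 was also lost without day 1 replicate 4. Days 2, 3 and 4 were lost without day 0 replicate 5, day 2 also without day 2 replicate 3 or 4, day 3 without day 3 replicate 2 or 4, and day 4 without day 4 replicate 1 or 3. Reference gene scaling ended the calls of days 1 to 4 (limma adjusted p between 0.105 and 0.33). With slide as a fixed block the differences were 0.96, 0.70 and 0.80 on days 1, 3 and 5 and none passed (limma adjusted p = 0.183, 0.484 and 0.564). The genes most like Junb were Anp32a, Fkbp2 and Slc44a1, with r = 0.86, 0.85 and 0.84.

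Fosb, a further Fos family subunit, fell. Its level was 2.15, 1.53 and 1.71 on day 0, 1.28, 1.86 and 1.56 on day 1, and 1.56, 0.53 and 0.43 on day 2. It was 0.83, 1.02 and 0.63 on day 3, 1.10, 1.04 and 0.74 on day 4, and 0.79, 0.69 and 0.67 on day 5. The arrays of days 3, 4 and 5 lay below every day 0 array, and those of days 1 and 2 overlapped them. Of all genes, 56.2%, 58.8% and 52.5% did not overlap day 0 on days 3, 4 and 5, in either direction. The log2 difference from day 0 was -0.95 on day 2 (limma adjusted p = 0.00927), -0.97 on day 3 (limma adjusted p = 0.0077), -0.84 on day 4 (limma adjusted p = 0.0153) and -1.08 on day 5 (limma adjusted p = 0.00516). Day 1, at -0.23, did not pass. The calls on days 2 to 5 were lost when arrays were scaled to their median (limma adjusted p between 0.0534 and 0.186), and day 4 was lost without day 0 replicate 2 (0.065) or day 4 replicate 3 (0.0614). With slide as a fixed block the difference was -1.30 on day 3 and -1.22 on day 5, and neither passed (limma adjusted p = 0.093 and 0.241). The genes most like Fosb were Iqcf6, Ugt2b37 and Hivep3, with r = 0.83, 0.82 and 0.79.

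Dusp1, the MAP kinase phosphatase, fell on all 5 days. Its level was -0.11, 0.68 and -0.46 on day 0, -1.53, -0.80 and -0.95 on day 1, and -0.91, -0.80 and -0.60 on day 2. It was -1.20, -1.003 and -0.75 on day 3, -0.81, -1.38 and -1.73 on day 4, and -0.92, -1.56 and -0.60 on day 5. Every array of the later days lay below every day 0 array, where on single days 51.3% to 58.8% of all genes did not overlap, in either direction. The log2 differences were -1.13, -0.81, -1.02, -1.35 and -1.07 on days 1 to 5, with limma adjusted p values of 0.0139, 0.0494, 0.0163, 0.00309 and 0.0149. Day 0 replicate 4 held the highest Dusp1 value of the 18 arrays, and without it day 4 alone still passed (-1.02, limma adjusted p = 0.0196). Day 1 was also lost without day 1 replicate 1 (0.0671), day 3 without day 3 replicate 2 (0.0616) and day 5 without day 5 replicate 4 (0.0674). Day 2 was lost without any 1 of 12 arrays. Median scaling ended the calls of days 2, 3 and 5 (limma adjusted p = 0.255, 0.107 and 0.102). With slide as a fixed block the difference was -1.57 on day 1 (limma adjusted p = 0.0319), -1.79 on day 3 (limma adjusted p = 0.0503) and -2.07 on day 5 (limma adjusted p = 0.11). The genes most like Dusp1 were Vdr, the vitamin D receptor, Ubr4 and Ap1s3, with r = 0.88, 0.85 and 0.85.

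Jun, Myc and Ier3 did not pass against day 0 on any day when arrays were scaled to their 75th percentile. With median scaling Jun was higher on days 2 and 5 (limma adjusted p = 0.0153 and 0.0329), Ier3 on days 2, 4 and 5 (0.0349, 0.0406 and 0.0373) and Myc on day 3 (0.0319). With reference gene scaling Myc was lower on days 4 and 5 (limma adjusted p = 0.0256 and 0.0445). The day means of Jun lay between 3.49 on day 0 and 4.28 on day 2, and the day 2 difference was 0.78 ± 0.34 (SE). Jun passed on day 2 without day 4 replicate 1 (limma adjusted p = 0.0341) or day 0 replicate 2 (0.042). Jun was like Btg2 with r = 0.84, Sik1 with r = 0.74 and Errfi1 with r = 0.72, and like Atf3 with r = 0.84. Ier3 stayed between 1.18 and 2.26 on all 18 arrays, and its differences lay between 0.22 and 0.33, below 0 on all 5 days with reference gene scaling. It passed on day 2 without day 0 replicate 2 (limma adjusted p = 0.049). The genes most like Ier3 were Btg2, Nr4a1 and Marcksl1, with r = 0.82, 0.79 and 0.76.

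Myc, the growth factor-induced transcription factor, was highest on day 3 and lowest on day 5. Its level was 0.38, -0.26 and -0.11 on day 0, -0.07, 0.16 and 0.24 on day 1, and 0.26, 0.46 and 0.82 on day 2. It was 0.19, 0.66 and 1.18 on day 3, -0.05, -0.90 and -0.58 on day 4, and -0.55, -1.52 and 0.26 on day 5. The day 4 arrays lay below every day 3 array, though the share of all genes so separated on these 2 days was not counted. Day 4 minus day 3 was -1.18 ± 0.37 (SE, limma adjusted p = 0.0939). Myc passed against day 0 on day 5 without day 5 replicate 5 (-1.04, limma adjusted p = 0.0322). The genes most like Myc were Depp1, N4bp2l1 and Dnase1l3, with r = 0.81, 0.77 and 0.77.

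A moderated F-test over the 6 days called 5 of the 10 genes, where 53.1% of all genes were called. These were Fosl1 (limma adjusted p = 0.00181), Fosb (0.0116), Dusp1 (0.0273), Myc (0.0383) and Fos (0.0495). Fosl1 passed the filter only through days 2 and 3, so its calls here and with the antibody days pooled are given as a description. The F-test called 2 genes without day 0 replicate 4, and 3 without any 1 of day 0 replicate 5, day 2 replicate 3 or 4, day 3 replicate 4 or day 5 replicate 2, and 7 without day 5 replicate 4. It called 3 with no filter, where 11576 of all genes were called, and 0 with normexp, where 854 were called (saddle). With the 5 antibody days pooled against day 0, where 58.8% of all genes passed, 28.9% higher and 29.8% lower, Fos, Fosl1, Junb and Atf3 were higher and Fosb and Dusp1 were lower. The Fos and Atf3 calls were lost without day 0 replicate 4 (limma adjusted p = 0.0973 and 0.0699), and Fos also without day 0 replicate 5 (0.0627). Egr1, at 1.04, did not pass (limma adjusted p = 0.0568), and did without any 1 of 4 arrays (lowest 0.0196). By limma none of the 10 genes passed in the 8 comparisons between antibody days. Of all genes, 0.41% passed for day 2 against day 1, 0.323% for day 3 against day 2, 2.99% for day 4 against day 3 and 2.77% for day 5 against day 4. The shares were 0.00431% for day 3 against day 1, 0.121% for day 5 against day 1, 0.00863% for day 5 against day 3 and 0.0992% for day 4 against day 2. At an unadjusted p under 0.05, 11 of the 80 differences would pass, in Fos, Fosb, Fosl1, Egr1 and Myc. With trend and robust fitting, slide as a random block, reference gene scaling or repaired normexp, 1 of the 10 genes passed for day 4 against day 3. Of all genes, 761, 806, 1096 and 1007 were called there under these settings.

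Arrays of 1 day differed in the same direction across several of these genes. Day 4 replicate 1 was the highest array of its day for 9 of the 10 genes, all but Fosl1, against 46.5% of all genes. In the same array the summed glomerular endothelium markers were at 5.997, the lowest of the 18 arrays, against 6.61 and 6.59 on the other day 4 arrays. Its proximal tubule markers were at 9.93, the highest of the 18, against 9.22 and 9.59, and its macrophage markers at 5.27, against 7.43 and 7.21. The part of tissue make-up in these values was not tested. Day 5 replicate 4 was the lowest of its day for 9 of the 10, all but Fosb, against 26.3% of all genes. After day means were removed, Jun and Atf3 had r = 0.88, Egr1 and Atf3 had r = 0.90 and Jun and Egr1 had r = 0.88 over the 18 arrays. Without day 5 replicate 4, day 5 minus day 0 passed for Fos (2.23, limma adjusted p = 0.0443), Egr1 (1.73, limma adjusted p = 0.025) and Fosl1 (limma adjusted p = 0.0364, with no size given against a day 0 below background), and Dusp1 was lost (limma adjusted p = 0.0674).

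The related genes were taken from lists, and day 2 is described because most of the 10 genes passed there. Of all genes tested, 20.8% were higher and 25.1% were lower on day 2, and each list's counts stand beside these shares, with nothing taken as particular to a list. Of 25 other immediate early genes tested, 9 were higher and 1 was lower on day 2, with a median log2 difference of 0.59 beside 0.05 for all genes. Egr2, a relative of Egr1, was at least 2.20-fold higher (limma adjusted p = 0.00115), since no day 0 array was well above background. It is 1 of the 9 higher genes, but passed the filter only through days 2 to 5, where it was high. Its p value is given as a description. Zfp36 rose by 2.60 (limma adjusted p = 0.00515) and Nr4a1 by 1.44 (limma adjusted p = 0.0221). Zfp36 was well above background on 2 of 3 day 0 arrays. Socs3, a brake on cytokine signalling, fell by 0.78 (limma adjusted p = 0.0209). On day 1, 1 of the 25 genes was higher and 1 was lower. Zfp36, Nr4a1 and Socs3 passed only on days 2 and 4, the days not scanned with day 0. On days 1, 3 and 5 Zfp36 was at 0.45, 1.02 and 0.26, and Nr4a1 at 0.68, 0.68 and 0.97. Socs3 was at -0.53, -0.49 and -0.30 on those days.

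Among 9 other AP-1 and Maf factors tested, 2 were higher and 2 were lower on day 2, a share near the 45.9% of all genes called that day, and their median log2 difference was 0.16. Batf3 and Batf, both leukocyte factors, rose by 3.41 and 1.46 (limma adjusted p = 0.00183 and 0.0179). Batf3 was well above background on 1 of 3 day 0 arrays. It passed the filter only through days 1 to 3, where it was high, so its p value is given as a description. Maf and Fosl2 fell by 1.98 and 1.46 (limma adjusted p = 0.00347 and 0.0069). Of 9 serum response, ternary complex and Nab factors, 3 were higher and 1 was lower: Creb1 rose by 1.46, Elk3 by 1.04 and Elk4 by 0.57, and Nab2, a corepressor of Egr1, fell by 1.18. Creb1 passed only on days 2 and 4, the days not scanned with day 0. It was at 0.70, 0.68 and 0.11 on days 1, 3 and 5.

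Of 12 MAP kinase phosphatases and Sprouty inhibitors other than Dusp1, 4 were higher and 5 were lower on day 2. Spry4, Dusp2 and Dusp5 rose by 1.80, 1.62 and 0.84. Dusp7, Spred2 and Dusp8 fell by 3.14, 2.68 and 2.27. Of 20 MAP kinase cascade genes, 3 were higher and 5 were lower. Map2k3 and Mapk9 rose by 0.57 and 0.56, and Mapk8, which encodes JNK1, fell by 1.10, Map3k5 by 0.99 and Map3k1 by 0.72. Of 11 genes of the Atf4 stress response, 3 were higher: Asns rose by 1.09, Ddit3 by 0.86 and Atf4 by 0.52.

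Target genes known from other systems were examined beside the factors. Of 13 AP-1 target genes tested, 9, 7, 8, 6 and 6 were higher on days 1 to 5, and Mmp9, a gelatinase, was the 1 lower on days 1 and 2. On day 2 Mmp12, a macrophage elastase, rose by 5.04 and Ccl2, a monocyte chemokine, by 2.47. Mmp12 was well above background on 1 of 3 day 0 arrays and passed the filter only through days 1 to 4, where it was high. Several of these are also leukocyte genes. The median log2 difference of the AP-1 targets was 1.17, 0.94, 1.59, 1.34 and 1.09 on days 1 to 5. That of the 11 macrophage markers tested was 2.48, 2.45, 3.18, 1.36 and 1.16 on the same days. The part of leukocyte content was not tested. Of 15 Myc target genes, 10, 8, 11, 12 and 12 were higher on days 1 to 5 and none was lower, with medians of 0.71, 0.53, 0.78, 0.78 and 0.65. On day 2 Nop58, Ncl and Fbl, all nucleolar proteins, rose by 0.85, 0.85 and 0.72. The 12 housekeeping genes used as scaling references had medians of 0.47, 0.52, 0.69, 0.66 and 0.52 on the same days. Of 9 Myc partners and antagonists, Mxd3 rose on day 2 by 2.17, while Mnt, Mxd1 and Max fell by 1.67, 1.01 and 0.85. Of 10 Egr1 target genes, 1 was higher and 2 were lower on day 2: Icam1 rose by 0.98, and Thbs1 and Nab2 fell by 2.55 and 1.18.

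**Figure D4:**
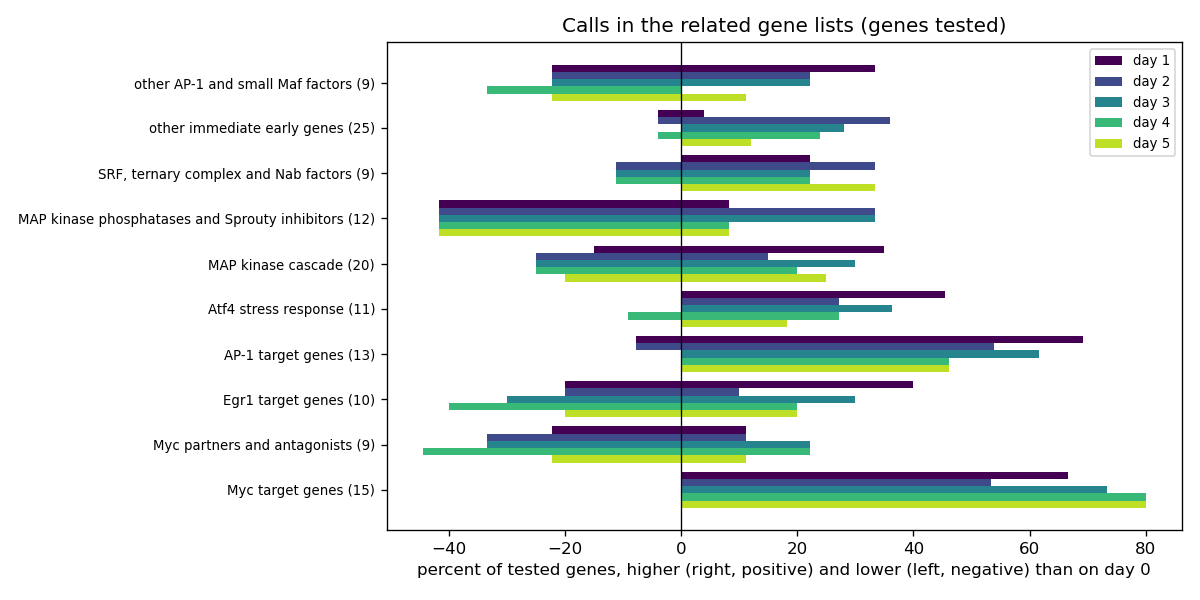
Percent of tested genes in each related list (rows, number tested in brackets) that were higher (right of 0) or lower (left of 0) than on day 0 by limma at an adjusted p of 0.05, with 1 bar for each of days 1 to 5. Myc target genes have bars on the right only, and the MAP kinase phosphatases and Sprouty inhibitors have 5 genes lower on every day.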

How the data were processed

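Glomerular RNA of 18 samples was labelled with Cy3 and hybridised to single-colour Agilent arrays. Per the file headers, the authors' scanner files were made with Feature Extraction 10.7.3.1, and the deposited processed intensity is background-subtracted and detrended within the array, with a surrogate value above 0 for dim spots such as Fosl1 on day 0. The authors' value table is on a log2 scale, with array medians of 5.49 on days 0, 2 and 4 and 5.31 on days 1, 3 and 5; its values share their quantiles within each of these sets, so it was tested only within a set, and no source used here gives its scaling.

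Control and outlier-flagged spots were dropped, and repeat spots averaged. Log2 intensity minus the 75th percentile of each array was used, with the brightest probe per gene. Of 41012 probes, 27837 passed the filter, leaving 23188 genes and transcripts, named by RefSeq where an accession or symbol matched. limma 3.58.1 (R 4.3.3) fitted the 6 days together, with Benjamini-Hochberg adjustment over all genes. Between 55.2% and 69.6% of probes per array were well above background, and no spot was saturated. The number of arrays limits the precision, and p-values measure only the spread between arrays. The procedure was tested on simulated data.

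The 10 genes and the lists were chosen with earlier results of these data known. Named genes were the 10, the 3 largest calls in each direction of each list, Thy1, and the 3 genes most correlated with each of the 10. Some genes that this rule names are not reported here. Replicate numbers did not pair the arrays: same-numbered arrays had deviations correlated between -0.38 and 0.28. Slide and scan day were tried as batches.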

Additional observations from a re-analysis of the deposited data

How the results depend on the processing

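Of the members' differences from day 0, 981 of 1080 values kept direction and call when 1 array was left out in turn, and 645 of 824 under the other settings. These counts include results that passed in neither fit. A left-out array of another day also leaves a single day's difference unchanged. The counts therefore do not measure how stable the calls were. Without day 0 replicate 4, 15 of 60 results lost their call. Normexp background correction (saddle or mle) left 0, 0, 0, 1 and 0 genes called on days 1 to 5, 0 for the antibody days together and 0 over the time course. Calls fell for all genes too: saddle left 2131 for the antibody days together and 854 over the time course. In the main fit these were 13624 and 12307. After spots over 20 units below their local background were repaired, an alternative chosen after seeing the data, day 4 against day 3 gave 1. That setting called 1007 of all genes there. Scaling to the median gave 7 on day 4, where 13700 of all genes were called. Scaling to reference genes gave 4 on day 2, 3 on day 3 and 1 for day 4 against day 3. In these comparisons it called 10496, 11879 and 1096 of all genes. Slide as a fixed block gave 1 on day 3 and 0 on day 5, and could not be fitted for days 2 and 4 against day 0. Day 4 against day 3 gave 1 with slide as a random block and 1 with trend and robust fitting. These fits called 806 and 761 of all genes there. The 2 groups alone gave 1 on day 5, where 4813 of all genes were called, against 10263 in the main fit. The replicate block gave 4, 2 and 2 on days 2, 3 and 4. It called 7938, 8727 and 7815 of all genes on these days, against 10651, 11068 and 12119 in the main fit. No filter gave 3 over the time course, where 11576 of all genes were called. Leaving out 1 array gave 1 to 4, 3 to 8, 2 to 6, 2 to 6 and 2 to 6 genes on days 1 to 5, 0 to 1 for day 5 against day 1, 0 to 2 for day 5 against day 3, 0 to 2 for day 4 against day 3, 4 to 8 for the antibody days together and 2 to 7 over the time course. Counts of all genes with 1 array left out are not reported here, so these ranges are not set against them. The cause was not tested, except that normexp met 2 arrays with spots far darker than their background.

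These differences changed sign. Fosl1 on day 4 was -0.38 under saddle, mle and repaired normexp, and -0.15 on day 5 when repaired. Its mean intensity on days 0, 4 and 5 was below the normexp offset of 50, so these signs do not show a fall. Fosb on day 1 was 0.11 with median scaling. Jun on day 4 was -0.26 with quantile normalization, -0.25 in the authors' table, -0.10 without day 0 replicate 4, and -0.26 without day 4 replicate 1 or slide 4. With reference genes, Myc and Egr1 on day 1 were -0.33 and -0.22, Jun on days 3 and 4 was -0.0056 and -0.43, Ier3 on days 1 to 5 was -0.11, -0.032, -0.18, -0.31 and -0.14, and the antibody days together gave -0.40 for Myc and -0.15 for Ier3. With slide as a fixed block, Myc and Egr1 on day 1 were -0.076 and -0.13, Ier3 and Jun on day 3 were -0.11 and -0.30, and Jun and Egr1 on day 5 were -0.59 and -0.042. With the replicate block, Myc and Egr1 on day 1 were -0.025 and -0.012. Over the arrays left out in turn, Myc on day 1 was -0.026 (without day 0 replicate 4) to 0.29, Egr1 on day 1 was -0.13 (without day 0 replicate 4) to 0.49 and Ier3 on day 3 was -0.028 (without day 0 replicate 4) to 0.46. Jun on day 4 was -0.26 to 0.40. Without day 1 replicate 4 Egr1 on day 1 was -0.088. Myc over the antibody days together was -0.097 (without day 0 replicate 4) to 0.22, and was also below 0 without day 0 replicate 5, day 3 replicate 4, day 4 replicate 1 or day 5 replicate 5. Each gene had 1 probe, so a second probe could not be tried.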
